A study of Rattus norvegicus with 15 samples.

Results

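The genes described here stop the light response of rods and cones and reset it through calcium. They are the 9 genes whose symbol in the deposited files is Sag, Grk1, Rcvrn, Guca1a, Guca1b, Gucy2f, Rgs9, Rgs9bp or Pdc, of 20375 genes in the files. They were chosen by name and not by their values, and all 9 had a mean level above the filter that left 15424 genes for testing. Whole retinas of wild-type Sprague-Dawley rats, labelled postnatal week 12 and day 31 after transplantation, were profiled by RNA-seq in 5 groups of 3 libraries. NT rats were healthy. Sham rats received sodium iodate (NaIO3), an oxidant that damages the retinal pigment epithelium and then the photoreceptors, at 40 mg/kg into the bloodstream, together with an injection of vehicle into the vitreous. MSC rats received NaIO3 and an intravitreal injection of human mesenchymal stem cells from Wharton's jelly. MSCEPO rats received NaIO3 and the same kind of cells carrying a lentiviral human erythropoietin gene. DPSC rats received NaIO3 and cells that the labels call DPSC without spelling out the name. Rats with xenografts were also given dexamethasone at 2 mg/kg before surgery and cyclosporin at 10 mg/kg/day after it, so the cells and the immunosuppressants cannot be told apart in any comparison with Sham. In the same way, NaIO3 and the vehicle injection cannot be told apart between Sham and NT.

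In a rod, light turns the visual pigment into an active receptor that switches on the G protein transducin, which activates a phosphodiesterase, lowers cyclic GMP and closes the cation channels of the outer segment. The response ends when a receptor kinase phosphorylates the pigment, arrestin caps it, and an RGS9 complex speeds the hydrolysis of GTP on transducin. The fall of calcium in light then releases recoverin from the kinase and lets the guanylate cyclase activating proteins drive retinal guanylate cyclase, which restores cyclic GMP and reopens the channels.

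Values are regularized log2 (rlog) levels, which the authors computed with DESeq2 from gene-level read estimates. The transformation pulls the libraries of a gene toward its mean, most strongly at low counts, so log2 differences understate changes. The levels are not corrected for gene length and are therefore compared between libraries and not between genes. In bulk tissue, fewer photoreceptors and less RNA per photoreceptor cannot be told apart. Across all tested genes the library labelled MSCEPO replicate 3 stood apart: 11.3% of genes lay more than 1 log2 unit from the mean of the other 2 MSCEPO libraries, against 0.434% to 6.75% in the other 14 libraries, and its nearest library was DPSC replicate 3. The library labelled MSC replicate 1 came next, at 6.75%. Values that moved most without one of these libraries are given beside the result. Rod markers of the labelled tissue were present, with a mean rlog of 15.11 in NT for Pde6b, a subunit of rod phosphodiesterase.

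Promoters of 3 members are shown. Guca1a and Guca1b encode partner proteins and are neighbours on chromosome 9, and Gucy2f encodes a cyclase those proteins regulate. In the RefSeq annotation of GRCr8, Guca1a lies on the plus strand and Guca1b on the minus strand, with 0 annotated genes lying wholly between them. Both genes read toward each other, so their promoters lie on the outer sides of the pair. RefSeq promoter windows were matched for 7 of the 9 genes. The sequences run 5' to 3' over the 250 bases before the annotated start, at chr9:21086392-21086641 (plus strand) for Guca1a, chr9:21105108-21105357 (minus strand) for Guca1b and chrX:110605018-110605267 (minus strand) for Gucy2f. Capitals mark matches on either strand to GGATTA, the core bound by the photoreceptor factor CRX, to TGCTGA, part of the element bound by the rod factor NRL, and to AGGTCA, a nuclear receptor half-site of the kind bound by the ROR factors.
Guca1a: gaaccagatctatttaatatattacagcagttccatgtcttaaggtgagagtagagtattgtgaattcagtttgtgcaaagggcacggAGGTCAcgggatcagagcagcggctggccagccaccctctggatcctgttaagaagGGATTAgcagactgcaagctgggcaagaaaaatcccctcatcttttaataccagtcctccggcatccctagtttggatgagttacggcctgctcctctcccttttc
Guca1b: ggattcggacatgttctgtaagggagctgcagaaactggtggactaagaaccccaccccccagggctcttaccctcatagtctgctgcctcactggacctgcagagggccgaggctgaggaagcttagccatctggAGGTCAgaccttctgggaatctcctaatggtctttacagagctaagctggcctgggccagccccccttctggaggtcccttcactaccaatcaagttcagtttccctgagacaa
Gucy2f: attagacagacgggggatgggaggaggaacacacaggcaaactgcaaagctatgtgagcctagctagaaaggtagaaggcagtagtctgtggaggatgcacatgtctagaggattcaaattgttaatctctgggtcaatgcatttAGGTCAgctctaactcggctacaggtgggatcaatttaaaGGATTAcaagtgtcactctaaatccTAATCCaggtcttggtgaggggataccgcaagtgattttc
GGATTA was present in 2 of the 7 windows, Guca1a and Gucy2f, and in 6.34% of all 33469 windows of the same length. AGGTCA was present in 3 of the 7 windows, the 3 shown here, and in 14.1% of all windows. TGCTGA was present in 1 of the 7, that of Sag, and in 15.1% of all windows. The windows of Rgs9, Rgs9bp and Pdc held no match, and no match overlapped another. A match describes the letters only.

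Of the genes that act on the receptor, Grk1 encodes the rod receptor kinase. Its rlog level was 12.84, 13.08 and 13.05 in the NT libraries and 12.37, 12.24 and 12.30 in Sham. It was 11.64, 11.54 and 11.62 in MSC, 11.45, 11.44 and 10.73 in MSCEPO, and 12.05, 11.56 and 12.07 in DPSC. The 3 NT libraries were highest, the 3 Sham libraries came next, and neither range touched any other group. Within MSCEPO, replicate 3 was the lowest of all 15 libraries.

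Rcvrn encodes recoverin, the calcium sensor that holds the receptor kinase in darkness. Recoverin mRNA had rlog levels of 14.88, 14.89 and 14.53 in NT, 13.96, 14.07 and 13.76 in Sham, and 13.80, 13.27 and 13.23 in MSC. It was 13.21, 12.89 and 13.68 in MSCEPO and 13.82, 13.26 and 14.15 in DPSC. NT was again above every other library, but the highest DPSC library exceeded all of Sham, and MSCEPO replicate 3 was the highest of its group. Sag encodes rod arrestin, which binds the phosphorylated receptor. Levels of Sag were 16.57, 16.58 and 16.70 in NT, 16.36, 16.36 and 16.04 in Sham, and 15.55, 15.33 and 15.47 in MSC. It was 15.33, 15.20 and 15.62 in MSCEPO and 15.85, 15.33 and 16.04 in DPSC. MSC and MSCEPO lay wholly below Sham, whereas DPSC overlapped it.

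Among the genes that act on transducin, Rgs9 encodes the GTPase-activating protein that limits the lifetime of the response. Levels of Rgs9 were 12.81, 12.99 and 13.10 in NT, 12.53, 12.30 and 12.54 in Sham, and 12.17, 12.08 and 12.21 in MSC. It was 12.16, 11.86 and 9.90 in MSCEPO and 12.21, 12.19 and 11.90 in DPSC. Every library of the 3 cell groups lay below Sham, and MSCEPO replicate 3 lay far below all the others. Rgs9bp encodes the membrane anchor of that complex. The rlog levels of Rgs9bp were 9.33, 9.58 and 9.63 in NT, 9.10, 8.19 and 9.28 in Sham, and 8.38, 8.68 and 8.65 in MSC. It was 8.69, 8.69 and 7.42 in MSCEPO and 8.82, 8.65 and 8.79 in DPSC. Sham replicate 2 and MSCEPO replicate 3 were the lowest, and Sham spanned every other cell-injected library. Pdc encodes phosducin, which binds the beta-gamma subunits of transducin. The rlog levels of Pdc were 16.12, 16.13 and 16.09 in NT, 15.41, 15.43 and 15.31 in Sham, and 15.11, 14.81 and 14.73 in MSC. It was 14.75, 14.51 and 15.03 in MSCEPO and 15.27, 14.73 and 15.44 in DPSC. The NT libraries had an SD of 0.021 (n = 3) on the log2 scale, and of the cell groups only DPSC overlapped Sham.

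Of the cyclic GMP genes, Guca1a encodes guanylate cyclase activating protein 1. Levels of Guca1a were 13.12, 13.28 and 13.12 in NT, 12.86, 12.64 and 12.62 in Sham, and 11.97, 11.91 and 11.89 in MSC. It was 11.59, 11.86 and 12.71 in MSCEPO and 12.20, 11.76 and 12.70 in DPSC. MSC lay wholly below Sham, and MSCEPO replicate 3 and DPSC replicate 3 lay within Sham. Guca1b encodes guanylate cyclase activating protein 2. Levels of Guca1b were 14.42, 14.20 and 14.39 in NT, 14.02, 13.84 and 13.58 in Sham, and 12.95, 12.92 and 13.08 in MSC. It was 12.56, 12.80 and 13.28 in MSCEPO and 13.32, 12.95 and 13.88 in DPSC. Here both MSC and MSCEPO lay wholly below Sham. Gucy2f encodes a retinal guanylate cyclase. The rlog levels of Gucy2f were 10.46, 10.74 and 10.98 in NT, 10.10, 9.59 and 10.27 in Sham, and 9.65, 9.76 and 9.70 in MSC. It was 9.82, 9.56 and 7.78 in MSCEPO and 9.76, 9.96 and 9.41 in DPSC. The Sham range took in all of MSC, and MSCEPO replicate 3 was again far below the rest.

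**Figure D1:**
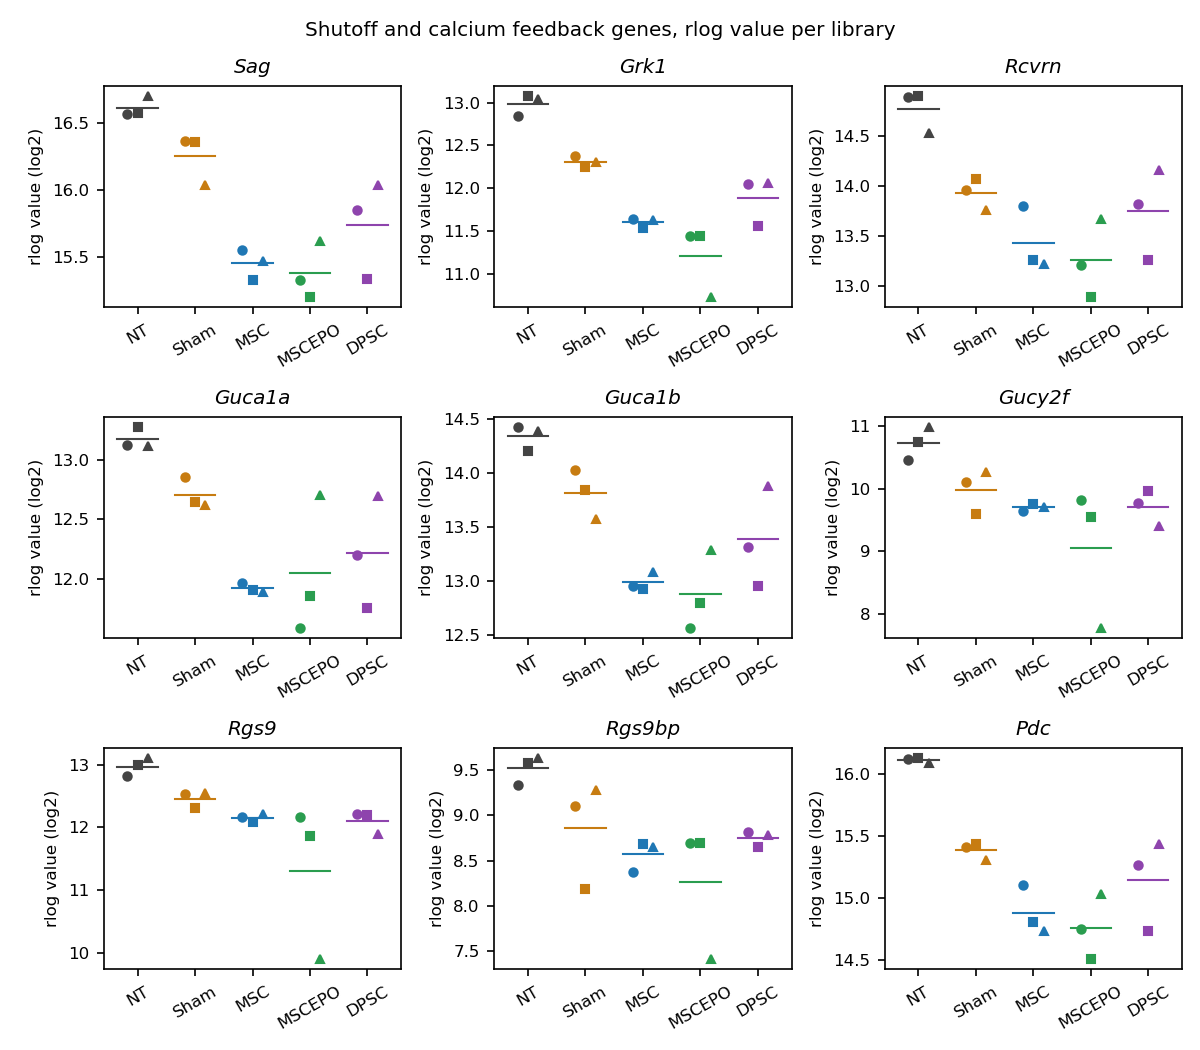
Rlog level (log2, vertical axis, a different range in each panel) of each gene in the 15 libraries, by group; circles, squares and triangles are replicates 1, 2 and 3 and bars are group means of 3 libraries. The NT libraries sit above every other library in all 9 panels, and MSCEPO replicate 3 is the lowest triangle for Grk1, Gucy2f, Rgs9 and Rgs9bp.

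The group means stood in the order NT, Sham, DPSC, MSC, MSCEPO for 7 of the 9 genes. Guca1a had its lowest mean in MSC, and Rgs9 had a higher mean in MSC than in DPSC. NT and Sham did not overlap for any of the 9 genes. Of the other neighbours in these orders, only Sham and DPSC for Grk1, MSC and MSCEPO for Grk1, and Sham and MSC for Rgs9 did not overlap. Over all tested genes, 15.3% were lower in Sham than in NT without overlap. In the same way 5.07% were lower in DPSC and 11.3% in MSC than in Sham, and 2.18% were higher in MSC than in MSCEPO.

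The first comparison asks what NaIO3 with vehicle did to these genes 31 days into the study. All 9 genes had lower means in Sham than in NT, as had 48.8% of tested genes, with a median log2 difference of -0.66 against 0.0047 for all tested genes. None of the 9 passed in limma at an adjusted p under 0.05, where 0.331% of tested genes were called lower. Without adjustment 4 of 9 had a p under 0.05, against 6.06% of tested genes that were lower by that rule. The groups did not overlap for 9 of 9, against 15.3% of tested genes that were lower without overlap. The difference for Rcvrn was -0.84 ± 0.25 (SE, n = 3 per group, adjusted p = 0.15 in limma). Pdc differed by -0.73 ± 0.19 (limma adjusted p = 0.102), and Grk1 by -0.68 ± 0.18 (limma adjusted p = 0.112). These were the members with the lowest p-values. Sag had the smallest difference, -0.36, with a 95% interval from -0.78 to 0.051, and it moved to -0.083 after quantile normalization of the libraries. The count depended on which libraries were in the fit. In a limma fit of NT and Sham alone 5 of 9 were called lower (Grk1, Rcvrn, Guca1a, Rgs9 and Pdc), and without MSC replicate 1 and MSCEPO replicate 3 it was 4 (Grk1, Rcvrn, Rgs9 and Pdc). The count over all genes grew as well: 3.55% of tested genes were called lower in the fit of these groups alone and 2.55% without both libraries, against the 0.331% above.

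Retinas given NaIO3 and cells were then compared with NT. The 3 comparisons share the NT libraries with each other and with the Sham comparison, so they are given side by side. In MSC, 6 of 9 genes fell, with 6.37% of tested genes called lower, and the median difference was -1.23 against 0.0016 for all tested genes. Sag, Grk1, Rcvrn, Guca1a, Guca1b and Pdc passed. Grk1 had the largest fall, -1.39 ± 0.18 (SE, n = 3 per group, limma adjusted p = 0.000791), or 2.62-fold. Sag fell by 1.16 on the log2 scale (SE 0.19, limma adjusted p = 0.00237), which is 2.24-fold. Rgs9 (-0.82, limma adjusted p = 0.204), Gucy2f (-1.02, adjusted p = 0.102) and Rgs9bp (-0.94, adjusted p = 0.0632) did not pass, although their 3 MSC libraries lay below the 3 NT libraries, as was so for all 9 genes against 21.2% of tested genes. These 3 were called without MSC replicate 1 and MSCEPO replicate 3, with limma adjusted p of 0.00268 for Rgs9, 0.00903 for Gucy2f and 0.0317 for Rgs9bp, where 9.94% of tested genes were called lower.

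In MSCEPO all 9 genes fell, with 5.81% of tested genes called lower, and the median difference was -1.46 against -0.0036. Grk1 differed by -1.78 ± 0.18 (SE, n = 3 per group, limma adjusted p = 0.000165), a 3.44-fold lower level. Gucy2f differed by -1.68 ± 0.40 (limma adjusted p = 0.0181) and Rgs9 by -1.66 ± 0.41 (limma adjusted p = 0.0212). Their standard errors were the largest of the 9, and both had MSCEPO replicate 3 far from the other libraries. Without that library the difference was -1.04 for Gucy2f, -0.96 for Rgs9 and -0.82 for Rgs9bp (limma adjusted p = 0.00667, 0.000836 and 0.0383), against -1.25 for Rgs9bp with it. Guca1a had the smallest difference, -1.12 ± 0.26 (limma adjusted p = 0.0144). The count was 9 without MSCEPO replicate 3, where 9.19% of tested genes were called lower, and 5 without NT replicate 2, where 3.2% were. The groups did not overlap for 9 of 9, against 15% of tested genes.

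In DPSC 5 of 9 genes fell, with 1.41% of tested genes called lower, and the median difference was -0.96 against 0.0037. They were Grk1 (-1.10 ± 0.18, SE, n = 3 per group, limma adjusted p = 0.00811), Pdc (-0.97 ± 0.19, adjusted p = 0.0171), Sag (-0.87 ± 0.19, adjusted p = 0.0304), Guca1b (-0.95 ± 0.22, adjusted p = 0.0399) and Rcvrn (-1.02 ± 0.25, adjusted p = 0.0456). Guca1a, Gucy2f, Rgs9 and Rgs9bp did not pass, with differences from -1.01 to -0.76. The groups did not overlap for 9 of 9, against 15.7% of tested genes. The number called was unsteady, and so was the share over all genes. It was 1 without NT replicate 1 (0.421% of genes called lower), NT replicate 2 (0.434%), NT replicate 3 (0.311%) or DPSC replicate 2 (0.434%). Without DPSC replicate 1 the number called was 2 (0.797% of tested genes). It was 9 without MSC replicate 1 and MSCEPO replicate 3 together, where 5.99% of tested genes were called lower. The DPSC libraries also differed in the mean level of 8 lens genes, which stood 5.64 above its NT mean in replicate 1, -0.82 in replicate 2 and 4.86 in replicate 3. The mean level of the 9 genes relative to NT was -0.88, -1.20 and -0.76 in the same order, lowest in the library without raised lens genes. That library, DPSC replicate 2, was also the highest of its group in immune and glial genes. In the same order, mean levels above NT were 0.90, 2.19 and 1.15 for microglia and macrophage genes and -0.03, 2.12 and 0.15 for B and plasma cell genes. They were 0.30, 1.03 and 0.13 for T and NK cell genes and 1.41, 2.04 and 1.53 for gliosis genes. The part of lens, immune and glial RNA in these values was not tested.

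**Figure D2:**
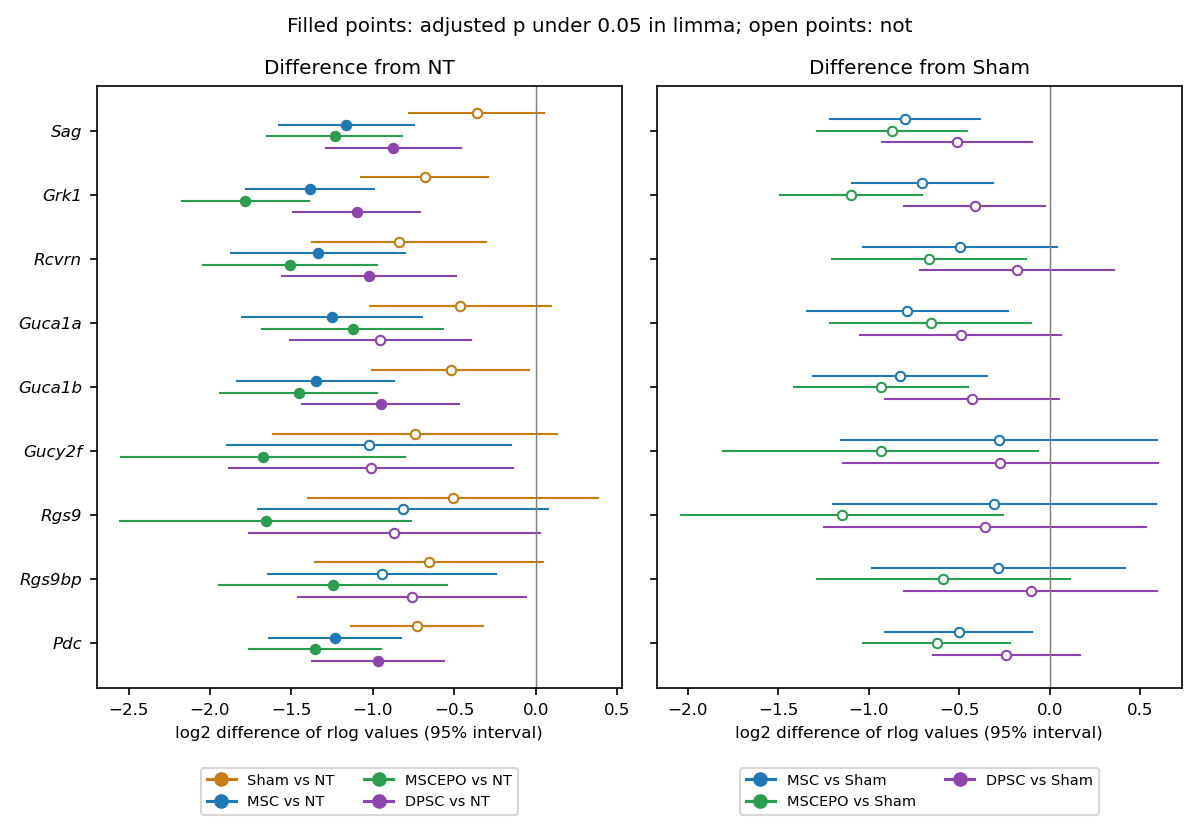
Log2 difference of rlog levels (horizontal axis) with its 95% interval from limma for each gene, from NT on the left and from Sham on the right; n = 3 libraries per group and colours mark the group compared. Filled points have an adjusted p under 0.05: 0 for Sham, 6 for MSC, 9 for MSCEPO and 5 for DPSC on the left, and 0 on the right.

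Whether the cells altered these genes in NaIO3 retinas is the question of the comparisons with Sham, which all share the Sham libraries. All 9 genes had lower means in each cell group than in Sham, as had 50.1% of tested genes in MSC, 49.7% in MSCEPO and 48.2% in DPSC, but none of the 9 passed in limma. In MSC the median difference was -0.50 against -4e-04 for all tested genes. None of 9 was called, with 0% of tested genes called lower, and 5 of 9 had an unadjusted p under 0.05, against 3.82% called lower by that rule. Guca1b differed most, by -0.83 ± 0.22 (SE, n = 3 per group, limma adjusted p = 0.142), and Sag by -0.80 ± 0.19 (limma adjusted p = 0.134). MSC lay wholly below Sham for 6 of 9, against 11.3% of tested genes. In a fit of MSC and Sham alone 2 of 9 were called, Grk1 and Guca1a, with 0.0453% of tested genes called lower.

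In MSCEPO the median difference from Sham was -0.87 against 0.0013. None of 9 was called in limma, with 0.0259% of tested genes called lower, and 8 of 9 had an unadjusted p under 0.05, against 5.12%. Grk1 came nearest, at -1.10 ± 0.18 (SE, n = 3 per group, limma adjusted p = 0.072). Without MSCEPO replicate 3 the difference for Grk1 was -0.86 and it was called (limma adjusted p = 0.0372). In that fit 0.175% of tested genes were called lower. Rgs9 differed by -1.15 ± 0.41 (limma adjusted p = 0.52), and by -0.45 without MSCEPO replicate 3. MSCEPO lay wholly below Sham for 6 of 9, against 6.81% of tested genes.

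In DPSC the median difference from Sham was -0.36 against 0.0065. None of 9 was called in limma, with 0.0195% of tested genes called lower, and Sag and Grk1, 2 of 9, had an unadjusted p under 0.05, against 1.39%. The difference for Sag was -0.51, with a 95% interval from -0.93 to -0.098, and that for Grk1 was -0.42, from -0.81 to -0.025. Without DPSC replicate 2 these were -0.31 and -0.25. Rgs9bp differed by -0.10, with an interval from -0.80 to 0.59, and its sign turned without Sham replicate 1 (0.019) or Sham replicate 3 (0.11). Rcvrn differed by -0.18, from -0.72 to 0.35, and its sign turned without DPSC replicate 2 (0.060). DPSC lay wholly below Sham for 2 of 9, Grk1 and Rgs9, against 5.07% of tested genes.

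With the 9 cell-injected libraries pooled against the 3 Sham libraries, none of the 9 genes was called in limma, with 0.0195% of tested genes called lower, and 6 had an unadjusted p under 0.05, against 4.02%. Grk1 differed by -0.74 ± 0.15 (SE, limma adjusted p = 0.136) and Sag by -0.73 ± 0.16 (limma adjusted p = 0.17). Without MSCEPO replicate 3 the difference for Grk1 was -0.66, and it was called (limma adjusted p = 0.0215), as were 0.363% of tested genes in the lower direction. Grk1 and Rgs9 were lower in all 9 cell-injected libraries than in any Sham library, as were 1.5% of tested genes.

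Between the cell groups 0 of the 15424 tested genes were called in limma in any of the 3 comparisons, and so 0 of the 9 (0%). At an unadjusted p under 0.05, 1 of the 9 was higher in MSC than in MSCEPO, against 2.83% of tested genes, 0 differed between DPSC and MSC (5.78% of tested genes lower and 1.24% higher), and 2 were higher in DPSC than in MSCEPO, against 1.58%. Grk1 was higher in DPSC than in MSCEPO by 0.68, with a 95% interval from 0.29 to 1.08 (limma adjusted p = 0.996). The libraries did not overlap for Grk1, against 2.39% of tested genes that were higher in DPSC without overlap. Grk1 was higher in MSC than in MSCEPO by 0.40, from 0.0047 to 0.79 (limma adjusted p = 0.754). Without MSCEPO replicate 3 these differences for Grk1 were 0.45 and 0.16. Rgs9 differed by 0.84 between MSC and MSCEPO, with an interval from -0.049 to 1.73, and this was 0.14 without MSCEPO replicate 3 and 1.27 without MSCEPO replicate 1. Between the same groups Guca1a differed by -0.13, from -0.68 to 0.43, and its sign turned without MSCEPO replicate 3 (0.20).

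Each gene was also set against the mean of 4 rod genes that take no part in shutoff (Nrl and Nr2e3, transcription factors of rods, and Rom1 and Rp1, structural genes of the outer segment), by subtracting that mean in each library. On this scale the 12 NaIO3 libraries differed from the 3 NT libraries by -0.15 for Grk1, 0.18 for Sag and 0.18 for Rgs9bp. The value for Grk1 was -0.080 without MSCEPO replicate 3 and -0.10 without NT replicate 3, and that for Rgs9bp 0.10 without NT replicate 1. None of the 9 genes passed the two-sided exact permutation test after adjustment over the 18 tests made (adjusted p of 0.908, 0.692 and 0.908 for those genes). For the 9 cell-injected libraries against the 3 Sham libraries, Sag minus the rod mean was 2.90 ± 0.09 (SD, n = 9) against 3.23 ± 0.26 (SD, n = 3), a difference of -0.33 (exact permutation p = 0.00909, adjusted p = 0.164). Without Sham replicate 2 it was -0.21. Guca1b differed by -0.34 (exact permutation p = 0.0364, adjusted p = 0.327) and Grk1 by -0.35 (exact permutation p = 0.0864, adjusted p = 0.518). Without MSCEPO replicate 3 the differences were -0.36 for Sag, -0.38 for Guca1b and -0.26 for Grk1. The exact permutation test then gave an adjusted p of 0.0545 for each of these genes. With all libraries in, the smallest exact permutation p is 0.0022 for 12 against 3 libraries and 0.00455 for 9 against 3. It is larger without MSCEPO replicate 3, where fewer arrangements of the libraries exist. The reference genes themselves were lower than NT by a mean of -0.79 in Sham, -1.21 in MSC, -1.39 in MSCEPO and -0.94 in DPSC on the log2 scale, against -0.61, -1.17, -1.45 and -0.95 for the 9 genes.

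In the library labelled MSCEPO replicate 3 the 9 genes did not move together. Relative to the mean of the other 2 MSCEPO libraries, Rgs9 was at -2.11, Gucy2f at -1.91, Rgs9bp at -1.28 and Grk1 at -0.72. Sag was at 0.36, Pdc at 0.40, Guca1b at 0.60, Rcvrn at 0.62 and Guca1a at 0.99. Among these deviations of all tested genes in that library, Rgs9 stood at the 1.26 percentile, Gucy2f at 1.76, Rgs9bp at 5.85 and Grk1 at 16.6. Sag stood at 78.1, Pdc at 81, Guca1b at 91.2, Rcvrn at 92 and Guca1a at 98.7. Of the 9 genes, 3 lay more than 1 log2 unit from the other 2 libraries, as did 11.3% of tested genes. Relative to those libraries, transcripts of RGS9, its membrane anchor, the Gucy2f cyclase and the kinase were lower, that of the kinase inside the spread of all tested genes. Those of arrestin, phosducin and the calcium sensors were higher, some of them well inside the spread of all tested genes. Of 10 genes of the rod activation cascade 0 lay below -1 there and 1 lay above 1. Gucy2e, which encodes another retinal guanylate cyclase, was at -1.46 and Impg2, a matrix gene of the photoreceptor layer, at -2.21. All 8 lens genes were between 2.64 and 4.92 higher in that library than in the other 2 MSCEPO libraries, and 5 of 8 pigment epithelium genes lay below -1. So did 4 of 5 B and plasma cell genes and 3 of 8 gliosis genes. It was 1 of 10 for microglia and macrophage genes and 1 of 10 for T and NK cell genes, and 0 genes of these lists lay above 1. As a mean over the list, the lens genes stood 3.80 above NT in that library, below DPSC replicates 1 and 3 (5.64 and 4.86). Relative to the other 2 DPSC libraries the 9 genes ran from -0.10 to 0.24 in DPSC replicate 1. In DPSC replicate 3 Gucy2f was at -0.46, Rgs9 at -0.30 and Guca1b at 0.75, a narrower range than in MSCEPO replicate 3. For both, the other 2 libraries include DPSC replicate 2, where the lens mean stood at -0.82. In DPSC replicate 2 Gucy2f was at 0.38, Rgs9 at 0.14, Rgs9bp at -0.15 and Grk1 at -0.50. Sag, Pdc, Guca1b, Guca1a and Rcvrn were at -0.73 to -0.61 there. The part of lens, pigment epithelium, immune and glial RNA in the split was not tested.

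**Figure D3:**
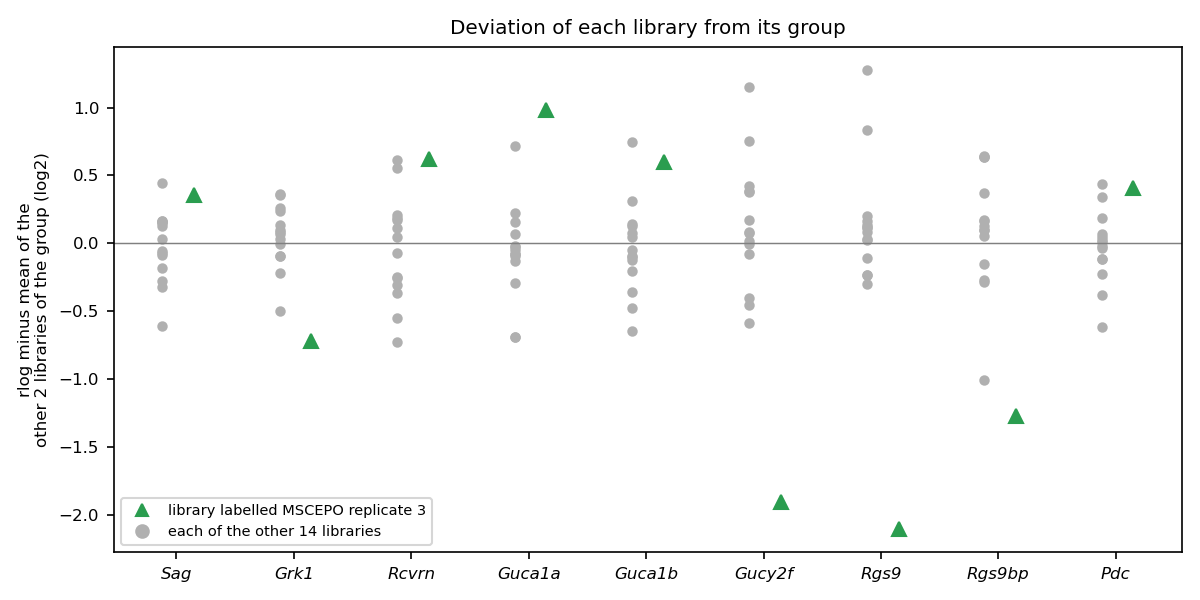
Rlog level of each gene in each library minus the mean of the other 2 libraries of its group (log2, vertical axis); the green triangle is the library labelled MSCEPO replicate 3 and grey points are the other 14 libraries. The triangle runs from -2.11 for Rgs9 to 0.99 for Guca1a.

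Over the 15 libraries the Pearson correlation of 2 members' rlog levels ran from 0.26 to 0.98 over the 36 pairs, with a median of 0.84. Libraries of a group share a treatment, and the values are given as a description. Among Sag, Rcvrn, Guca1a, Guca1b and Pdc it was 0.90 to 0.98, and among Grk1, Gucy2f, Rgs9 and Rgs9bp 0.84 to 0.98. These sets were chosen after their values were seen. Gucy2f, Rgs9 and Rgs9bp correlated with the first 5 genes at 0.26 to 0.60, and at 0.63 to 0.84 over the 14 libraries without MSCEPO replicate 3. Grk1 did not belong to 1 set only. It correlated with the first 5 genes at 0.735 to 0.886, and at 0.933 to 0.972 over the 14 libraries. With Gucy2f, Rgs9 and Rgs9bp it correlated at 0.841 to 0.853, and at 0.791 to 0.90 over the 14 libraries.

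The 8 genes outside the members whose levels followed the members' mean most closely over the 15 libraries were Cds1 (Pearson r = 0.995), Rbp3 (0.992), Crx (0.990), Ankrd33b (0.987), LOC361646 (0.984), Gnb1 (0.984), Herc3 (0.983) and Opn1mw (0.983). Rbp3 encodes the retinoid-binding protein of the matrix around photoreceptors, Crx a photoreceptor transcription factor, Gnb1 the beta subunit of rod transducin and Opn1mw a cone opsin. Without MSC replicate 1 and MSCEPO replicate 3, r was 0.981 to 0.995 for these genes over 13 libraries.

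Other genes of the same pathway were read from lists. Of 10 genes of rod activation and the rod channel, 3 fell in Sham against NT: Slc24a1, the rod sodium-calcium-potassium exchanger that extrudes calcium (-0.88 ± 0.17, SE, n = 3 per group, limma adjusted p = 0.0318), and the channel subunits Cnga1 (-0.84 ± 0.15, adjusted p = 0.0224) and Cngb1 (-0.51 ± 0.11, adjusted p = 0.0438). The list had a median of -0.79 in that comparison. In MSC 9 of 10 fell, in MSCEPO 9 and in DPSC 8, with medians of -1.20, -1.46 and -0.96, and none was called against Sham in limma, where 6, 9 and 0 had an unadjusted p under 0.05.

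Of 11 tested further genes of shutoff, calcium feedback and their chaperones, 0 were called in Sham against NT in limma (4 at an unadjusted p under 0.05), and 6 fell in MSC, 7 in MSCEPO and 2 in DPSC. The medians were -0.40, -0.92, -1.04 and -0.74. Gnb5, which encodes the beta subunit that completes the RGS9 complex, differed from NT by -0.65 in Sham (limma adjusted p = 0.0598), -1.10 in MSC (adjusted p = 0.000868), -1.18 in MSCEPO (adjusted p = 0.000427) and -0.80 in DPSC (adjusted p = 0.013). Aipl1, a chaperone of phosphodiesterase, fell in the 3 cell groups by 0.95, 1.04 and 0.74 on the log2 scale (limma adjusted p = 0.00222, 0.00134 and 0.0256). Unc119, which carries transducin to the outer segment, fell by 1.16 in MSC and by 1.09 in MSCEPO (limma adjusted p = 0.00358 and 0.00585).

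The cone cascade list of 10 genes had medians from -0.29 to -0.11 against NT. Opn1mw fell in the 3 cell groups, by 1.28 in MSC, 1.73 in MSCEPO and 1.14 in DPSC on the log2 scale (limma adjusted p = 0.00148, 0.000195 and 0.00868). Gnb3, the cone transducin beta subunit that ON bipolar cells also use, rose in all 4 NaIO3 groups, by 1.07 in Sham, 1.26 in MSC, 1.49 in MSCEPO and 1.11 in DPSC (limma adjusted p = 0.0444, 0.00318, 0.00134 and 0.0199). The other 8 cone genes were not called in any of these 4 comparisons.

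Markers of other cells were measured in the same libraries. None of 10 bipolar cell genes was called against NT in limma (0, 0, 2 and 0 lower at an unadjusted p under 0.05 in Sham, MSC, MSCEPO and DPSC), and the mean level of that list stayed within -0.49 and 0.04 of NT in the 12 NaIO3 libraries. Over all tested genes, 0.558% were called higher than NT in Sham, 11% in MSC, 5.83% in MSCEPO and 1.43% in DPSC. Of 8 genes of reactive gliosis, 4 rose in Sham, 8 in MSC, 8 in MSCEPO and 6 in DPSC, with list levels of 1.43 to 1.57, 2.20 to 2.36, 1.40 to 2.61 and 1.41 to 2.04 above NT. All 10 microglia and macrophage genes rose in MSC, 9 in MSCEPO, 2 in DPSC and 0 in Sham (10 at an unadjusted p under 0.05). All 10 tested T and NK cell genes rose in MSC, and 0 were called in Sham, MSCEPO and DPSC (0, 1 and 1 higher at an unadjusted p under 0.05), with levels of 0.90 to 3.28 in MSC, 0.47 to 1.29 in MSCEPO, 0.13 to 1.03 in DPSC and 0.10 to 0.20 in Sham. The 5 B and plasma cell genes likewise rose in MSC, with levels from 1.74 to 5.10, the highest in MSC replicate 1. In Sham, MSCEPO and DPSC 0 were called, with levels of -0.12 to -0.02, 0.18 to 2.28 and -0.03 to 2.12, so the ranges of MSCEPO and DPSC overlapped that of MSC. Of 8 ganglion cell genes, Slc17a6 (-0.80, limma adjusted p = 0.0212) and Pou4f2 (-0.68, adjusted p = 0.0488) fell in MSC, and 0 were called in Sham, MSCEPO and DPSC (0, 2 and 0 lower at an unadjusted p under 0.05). Of 8 genes of the pigment epithelium, 3 fell in MSC, 1 fell and 1 rose in MSCEPO, and 0 were called in Sham and DPSC in limma (3 and 2 lower and 0 and 1 higher at an unadjusted p under 0.05). The part of immune, glial and pigment epithelium RNA in the lower levels of the 9 genes was not tested.

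**Figure D4:**
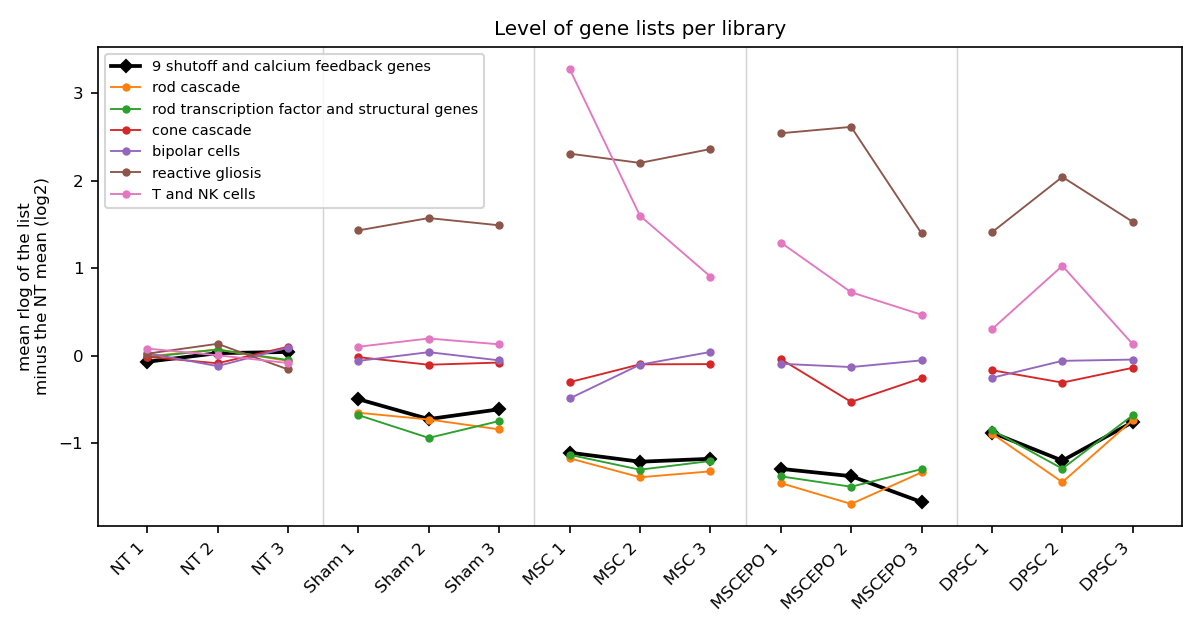
Mean rlog level of each gene list minus its NT mean (log2, vertical axis) in each of the 15 libraries. The 9 shutoff and calcium feedback genes (black) and the rod lists lie between -0.50 and -1.70 in the 12 NaIO3 libraries, while the bipolar list stays between -0.49 and 0.04 and the gliosis list lies between 1.40 and 2.61.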

How the data were processed

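Rat retinal RNA-seq reads were mapped by the authors with Salmon 1.1.0 to Rnor_6.0, summed to genes with tximport and transformed with DESeq2. The deposited values are log2 levels (rlog) for 20375 genes in 1 file per library, 2591 of them without a symbol. Read depth per library is not given with such values, so no counting error was computed. A further matrix was not used, because its 15 value columns are named by numbers that match no label. Groups came from the labels. The study calls the libraries biological replicates, but the labels name no animals, and p-values measure the spread between libraries.

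Genes with a mean rlog of at least 3.32 (log2 of 10; 15424 genes) were fitted in limma 3.58.1 (R 4.3.3) with group means over all 15 libraries and a variance trend, with Benjamini-Hochberg adjustment over all tested genes. Called means an adjusted p under 0.05. The fit was tested on simulated data. Ratios to rod genes used Nrl, Nr2e3, Rom1 and Rp1, the symbols of that list found in the files, and exact permutation tests. Named genes were all 9 members, up to 4 genes per list with the lowest adjusted p, and the 8 genes that correlated best with the members' mean. A gene of the rod list that this rule names is not reported here. Gucy2e, Impg2 and the split of the members into 2 sets were singled out after their values were seen. The members and lists were chosen with earlier results of these data known. Alternatives were other filters, sample sets, scalings, library weights, a replicate block and leaving out libraries. Replicate numbers were not taken as pairs: 12 of 30 same-numbered pairs of libraries had a correlation over 0.1.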

Additional observations from a re-analysis of the deposited data

Results flagged for a closer look

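In the 9 cell-injected libraries, 4 of the 9 genes had a lowest library whose gap to its neighbour, as a share of the whole range, exceeded Dixon's 95% critical value. The gap was 0.851 for Rgs9, 0.746 for Gucy2f, 0.686 for Rgs9bp and 0.535 for Grk1. The library labelled MSCEPO replicate 3 was the lowest in all 4. Chance flags about 1 in 20 such groups, and the 4 genes share this library, so they are not 4 separate events.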

How the results depend on the processing

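All 9 genes had lower means than NT in the 4 NaIO3 groups under every alternative run, and the number called was what varied. In a fit of only the groups compared, 5 of 9 were called for Sham against NT, 9 for MSC against NT, 5 for MSCEPO against NT, 4 for DPSC against NT and 2 for MSC against Sham, with 8.65%, 18.1%, 6.47%, 2.58% and 0.259% of tested genes called in either direction. For DPSC against NT that fit called Grk1, Gucy2f, Rgs9 and Rgs9bp, while Sag, Rcvrn, Guca1b and Pdc missed the threshold (limma adjusted p = 0.0773, 0.0718, 0.075 and 0.0579). Without MSC replicate 1 and MSCEPO replicate 3 together the counts were 4 for Sham against NT, 9 for DPSC against NT, 1 for MSCEPO against Sham and 1 for all cell groups against Sham. In those fits 4.92%, 12.1%, 0.208% and 0.448% of tested genes were called in either direction. For DPSC against NT a 2-fold threshold left 2 (0.259% of tested genes called lower) and no filter on low values 3 (0.903% lower). For MSCEPO against Sham median centring gave 1 (0.0584% lower).

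The planned array weights could not be used: limma's default REML estimate stopped without converging and gave MSC replicate 2 a weight of 8.51e-05. Gene-by-gene array weights, chosen after seeing this, gave that library 5.28, the highest weight, and MSCEPO replicate 3 0.0826, the lowest. With them 6 of 9 were called for Sham against NT, 9 for DPSC against NT, 6 for MSC against Sham, 7 for MSCEPO against Sham, 7 for all cell groups against Sham and 4 for DPSC against MSC. All-gene shares called rose too, from 0.888% to 15.4% for Sham against NT and from 0% to 18.1% for MSC against Sham. They rose from 2.85% to 23.8% for DPSC against NT and from 0.0259% to 7.16% for MSCEPO against Sham. For all cell groups against Sham they rose from 0.0195% to 11.6%, and for DPSC against MSC from 0% to 11.9%. The weights were estimated from 3 libraries a group and disagree between methods for MSC replicate 2, so these calls were not used.

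Leaving out 1 library at a time gave 5 to 9 for MSCEPO against NT, 1 to 6 for DPSC against NT, 0 to 1 for MSCEPO against Sham and 0 to 1 for all cell groups against Sham. It gave 6 to 6 for MSC against NT and 0 to 0 for the other comparisons. The share of tested genes called in either direction ran from 5.19% to 19.4% for MSCEPO against NT. It ran from 0.648% to 2.94% for DPSC against NT and from 8.73% to 17.7% for MSC against NT. Against Sham it ran from 0% to 0.188% for MSCEPO and from 0% to 0.389% for all cell groups. In the other comparisons it was at most 4.53%. Of the single differences named, these turned sign. Guca1a in MSC against MSCEPO was 0.11 with gene-by-gene weights, 0.18 without both libraries and -0.36 to 0.20 when leaving out 1 library, and in DPSC against MSCEPO it was -0.073 to 0.50. Rgs9 in DPSC against MSC was 0.052 with gene-by-gene weights and -0.11 to 0.048 when leaving out 1 library. In DPSC against Sham, Rgs9bp was -0.44 to 0.11 and Rcvrn -0.39 to 0.060. With the replicate block, 0 were called for Sham against NT, 6 for MSC, 9 for MSCEPO and 4 for DPSC against NT. In those fits 0.337%, 6.04%, 5.47% and 1.37% of tested genes were called lower. Of the 15 libraries, 5 correlated best with their own number. The cause of these shifts was not tested.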
